A study of Homo sapiens with 2 samples.

Results

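The antisense transcript clusters of the array were examined in the ovarian carcinoma line OAW42-R, resistant to cisplatin, and in its parent OAW42, sensitive to it. A transcript cluster is the set of probes the manufacturer assigned to one transcribed unit. Members were all clusters whose platform annotation gave exactly 1 gene symbol ending in -AS plus a number, the ending that gene nomenclature gives to a non-coding RNA transcribed from the strand opposite to a named gene, with clusters of chromosomes X and Y left out. This gave 749 clusters of 720 symbols, of 67524 clusters in all and 64838 not on X or Y. The rule used no measured value, but it was set with earlier results of these data known. OAW42-R was derived from OAW42 by exposure to increasing amounts of cisplatin with recovery between treatments. Both lines were grown without drug in the same serum-containing medium with insulin, and total RNA of 1 sample of each was hybridised to 1 Affymetrix human transcriptome array, so every value below stands without an error and no test was possible. A difference between the arrays can therefore come from the resistant state, from the culture or from the hybridisation, and these cannot be told apart. As the labels call both lines ovarian carcinoma, 12 markers of ovarian serous carcinoma and epithelium were checked, and all 12 were above the floor described below. Of the measured markers of other cell types, 3 of 5 fibroblast, 3 of 5 leukocyte and 2 of 4 endothelial markers were above it, with medians in both lines of 6.72 for fibroblast markers and of 6.32 in OAW42-R and 6.36 in OAW42 for leukocyte and 5.85 in OAW42-R and 5.86 in OAW42 for endothelial markers. Passing the floor alone thus does not mark a cell type, and what RNA of other cells adds to an antisense signal was not tested.

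Antisense RNAs are made from the strand opposite to another gene. Some share with that gene a promoter that fires in both directions, others start inside it or run into its tail, and a few are known to act on the transcription, splicing or stability of the gene they face, while most have no known function. Several are studied in tumours, among them OIP5-AS1, which binds microRNAs and RNA-binding proteins, and DSCAM-AS1, an oestrogen-receptor-dependent RNA of breast carcinoma. The gene named before -AS is called the partner here. RefSeq placed 500 of the 749 clusters against their partner: 188 lay inside the partner on the other strand, 143 overlapped it at the starts, 72 overlapped it at the ends, 71 stood head to head with it without overlap, 20 spanned it and 6 stood tail to tail without overlap, whereas 249 were not placed. Of all members, 735 were long non-coding RNA genes in RefSeq and 10 now carry a name ending in -DT (divergent transcript). A further 6 names, among them HNRNPU-AS1, have been folded into a protein-coding gene, so that those clusters may measure that gene. It is not always the partner, as ERICH1-AS1 now falls under DLGAP2 and FAM83H-AS1 under IQANK1. The clusters were unevenly spread, with 142 on chromosome 3, 66 on chromosome 13 and 54 on chromosome 10.

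The start regions of 4 loci are shown first, where antisense RNA and partner begin close to each other. At ST3GAL6, KCNJ2 and P3H2, a single stretch of DNA can serve both directions. All 4 loci were chosen after their values were seen, and start regions of other such pairs are not shown. Each window holds 250 bases before and 50 bases after the RefSeq start site in assembly GRCh38.p14, written 5′ to 3′ on the strand of its own gene. Capitals mark matches, on either strand, to TATAAA (the TATA box), CCAAT (the CCAAT box), GGGCGG (the GC box), CACGTG (the E-box) and TGACTCA (the AP-1 element). A match on the opposite strand is capitalised as its reverse complement, and the longest run of capitals in ST3GAL6 is 2 overlapping GC-box matches. THAP9-AS1 (chr4:82900867-82901166, minus strand) overlaps THAP9 (chr4:82900485-82900784, plus strand), which encodes a protein descended from a DNA transposase. The 2 starts lie 181 bases apart, with transcription running from each towards the other, and the windows share no base.
THAP9-AS1: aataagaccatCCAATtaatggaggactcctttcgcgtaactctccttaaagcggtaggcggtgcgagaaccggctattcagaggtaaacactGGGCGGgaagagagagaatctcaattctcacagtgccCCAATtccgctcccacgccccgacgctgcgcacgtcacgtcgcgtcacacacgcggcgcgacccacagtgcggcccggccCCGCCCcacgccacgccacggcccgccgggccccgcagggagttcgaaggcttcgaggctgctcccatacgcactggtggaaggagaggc
THAP9: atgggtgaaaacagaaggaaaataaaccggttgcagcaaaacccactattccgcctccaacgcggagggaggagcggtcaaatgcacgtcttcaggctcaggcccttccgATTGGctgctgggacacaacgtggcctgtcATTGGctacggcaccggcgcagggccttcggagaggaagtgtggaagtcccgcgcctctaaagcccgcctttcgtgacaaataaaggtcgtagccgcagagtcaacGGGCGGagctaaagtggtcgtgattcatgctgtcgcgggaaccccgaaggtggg

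ST3GAL6-AS1 (chr3:98732602-98732901, minus strand) faces ST3GAL6 (chr3:98732451-98732750, plus strand), a sialyltransferase gene. Of its 4 RefSeq start windows the one nearest to the antisense start is shown, 50 bases away, and the 2 windows share 149 bases. KCNJ2-AS1 (chr17:70169353-70169652, minus strand) stands head to head with KCNJ2 (chr17:70169282-70169581, plus strand), an inwardly rectifying potassium channel gene, with starts 130 bases apart and 229 bases common to both windows. LEPREL1-AS1, now P3H2-AS1 (chr3:190120714-190121013, plus strand), begins 67 bases from the nearer of 2 start windows of P3H2 (chr3:190120848-190121147, minus strand), a collagen prolyl hydroxylase gene formerly named LEPREL1, and the windows share 166 bases.
ST3GAL6-AS1: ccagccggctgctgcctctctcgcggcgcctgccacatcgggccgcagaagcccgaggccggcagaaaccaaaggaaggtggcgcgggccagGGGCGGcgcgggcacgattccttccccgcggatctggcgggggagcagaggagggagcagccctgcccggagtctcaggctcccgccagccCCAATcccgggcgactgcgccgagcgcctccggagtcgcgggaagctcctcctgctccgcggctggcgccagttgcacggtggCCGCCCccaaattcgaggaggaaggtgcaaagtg
ST3GAL6: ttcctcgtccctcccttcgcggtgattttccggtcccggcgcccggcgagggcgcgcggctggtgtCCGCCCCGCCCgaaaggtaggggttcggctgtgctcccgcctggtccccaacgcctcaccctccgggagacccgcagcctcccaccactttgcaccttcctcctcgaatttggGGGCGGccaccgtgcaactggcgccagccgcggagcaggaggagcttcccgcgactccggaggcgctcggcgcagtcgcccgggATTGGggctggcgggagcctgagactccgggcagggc
KCNJ2-AS1: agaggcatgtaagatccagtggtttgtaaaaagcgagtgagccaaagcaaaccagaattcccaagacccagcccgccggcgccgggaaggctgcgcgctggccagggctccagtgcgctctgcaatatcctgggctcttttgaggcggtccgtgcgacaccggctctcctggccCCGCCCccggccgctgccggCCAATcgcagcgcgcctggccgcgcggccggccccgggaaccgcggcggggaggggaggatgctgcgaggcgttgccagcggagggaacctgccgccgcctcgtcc
KCNJ2: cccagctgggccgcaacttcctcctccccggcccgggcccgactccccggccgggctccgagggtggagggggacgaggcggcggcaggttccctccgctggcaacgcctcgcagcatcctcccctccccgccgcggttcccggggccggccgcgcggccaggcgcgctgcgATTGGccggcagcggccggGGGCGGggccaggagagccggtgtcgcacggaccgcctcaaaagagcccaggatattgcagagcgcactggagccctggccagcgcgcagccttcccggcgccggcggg
P3H2-AS1: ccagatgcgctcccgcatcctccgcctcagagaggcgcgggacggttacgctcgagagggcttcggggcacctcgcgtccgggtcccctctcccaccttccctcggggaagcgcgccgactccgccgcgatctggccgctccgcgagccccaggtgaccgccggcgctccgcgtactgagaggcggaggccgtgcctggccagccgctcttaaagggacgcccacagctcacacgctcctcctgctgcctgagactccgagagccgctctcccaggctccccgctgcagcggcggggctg
P3H2: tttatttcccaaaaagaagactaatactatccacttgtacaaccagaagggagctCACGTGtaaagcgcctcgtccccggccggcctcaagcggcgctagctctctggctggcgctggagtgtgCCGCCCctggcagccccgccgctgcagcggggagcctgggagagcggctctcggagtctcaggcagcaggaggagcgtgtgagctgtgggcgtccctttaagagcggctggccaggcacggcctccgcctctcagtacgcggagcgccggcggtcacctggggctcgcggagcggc

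Of the 9 antisense clusters that differed by at least 1.5-fold, 4 had a RefSeq window: THAP9-AS1, shown above, and the next 3, printed because they are the start regions of the members that differed most. They are SLFNL1-AS1 (chr1:41014340-41014639, plus strand), THUMPD3-AS1 (chr3:9396574-9396873, minus strand) and TRPC7-AS2 (chr5:136226405-136226704, plus strand). The windows differed in composition. THUMPD3-AS1 held 38 CpG dinucleotides and THAP9-AS1 32, whereas SLFNL1-AS1 held 1 and TRPC7-AS2 held 2, and TRPC7-AS2 was the only one of the 4 with the letters TATAAA.
SLFNL1-AS1: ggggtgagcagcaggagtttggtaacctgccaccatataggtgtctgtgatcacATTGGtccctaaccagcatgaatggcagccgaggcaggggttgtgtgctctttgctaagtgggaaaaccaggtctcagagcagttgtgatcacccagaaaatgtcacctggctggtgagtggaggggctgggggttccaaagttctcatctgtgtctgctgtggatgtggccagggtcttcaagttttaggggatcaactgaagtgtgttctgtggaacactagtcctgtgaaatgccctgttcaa
THUMPD3-AS1: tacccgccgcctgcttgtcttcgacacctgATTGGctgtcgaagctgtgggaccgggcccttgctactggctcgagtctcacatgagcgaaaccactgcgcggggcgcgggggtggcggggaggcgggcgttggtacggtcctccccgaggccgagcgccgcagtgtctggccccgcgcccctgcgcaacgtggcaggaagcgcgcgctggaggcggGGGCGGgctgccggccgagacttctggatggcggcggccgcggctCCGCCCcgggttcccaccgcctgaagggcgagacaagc
TRPC7-AS2: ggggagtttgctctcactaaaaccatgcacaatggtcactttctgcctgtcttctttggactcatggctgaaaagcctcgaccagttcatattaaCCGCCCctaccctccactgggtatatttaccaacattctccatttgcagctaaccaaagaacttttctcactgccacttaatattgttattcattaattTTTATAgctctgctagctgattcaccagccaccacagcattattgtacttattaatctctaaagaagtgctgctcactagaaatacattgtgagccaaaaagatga

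Among 27305 RefSeq start windows, 1 per gene, 12% held TATAAA, 35.7% CCAAT, 44.6% GGGCGG, 7.43% CACGTG and 4.92% TGACTCA, and the median window had 14 CpG dinucleotides and 58.3% G and C. Over the 544 antisense genes with a window the shares were 11.6%, 33.5%, 35.1%, 6.43% and 6.62% in the same order, with 10 CpG dinucleotides and 56.5% G and C. The 253 whose cluster was above the floor held GGGCGG in 50.2% and TATAAA in 5.53%, with a median of 19 CpG dinucleotides and 63.3% G and C. Antisense genes with a cluster above the floor thus had more CpG-rich start regions than the whole set of antisense genes in these counts. A match says that the letters are present, not that a factor binds there.

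Signals are log2 RMA values, and a difference is the log2 signal in OAW42-R minus that in OAW42, so that 1.5-fold is 0.58 and 2-fold is 1. As low signals on such arrays lie near background, a cluster was read where the brighter of its 2 arrays reached that array's median over all clusters, 6.34 in OAW42-R and 6.30 in OAW42. This floor kept 348 antisense clusters of 339 symbols (46.5%), against 51.8% of all clusters not on X or Y. The other 401 all differed by less than 1.5-fold, with differences between -0.39 and 0.55. A cluster's signal also depends on its own probes, so single clusters are compared between lines and never with each other. In RNA of whole cultures, fewer expressing cells and less RNA per cell cannot be told apart.

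Most antisense clusters differed little between the lines. Of the 348, 339 (97.4%) differed by less than 1.5-fold, the median difference was 0.03, and the central 95% of differences lay between -0.30 and 0.56. Over all 33568 clusters above the floor the median was 0.01 and 96.3% were within 1.5-fold. Their central 95% ran between -0.41 and 0.60, a wider range than that of the antisense clusters. The antisense set was also dimmer. On the OAW42-R array its median brightness was 7.11, where all clusters above the floor had 7.73. On the OAW42 array the corresponding medians were 7.06 and 7.69. Whether this gap bears on the narrower range, or on the shares that follow, was not tested. Only 1 antisense cluster (0.287%) was at least 2-fold higher in OAW42-R, where 0.822% of all clusters were, and none was at least 2-fold lower, where 0.277% of all clusters were. At 1.5-fold, 8 (2.3%) were higher, close to the 2.64% of all clusters, and 1 (0.287%) was lower, against 1.03% of all clusters. Of these 9, 4 passed the floor through 1 line only. Among the 318 antisense clusters at or above the median of both arrays, 5 (1.57%) were at least 1.5-fold higher in OAW42-R, where 2.05% of all such clusters were, and 0 were at least 1.5-fold lower, where 0.857% were. None of the 318 was 2-fold apart in either direction, whereas 0.571% of all such clusters were higher in OAW42-R by that much and 0.202% were lower. Higher values outnumbered lower ones, with 196 higher, 142 lower and 10 equal. The share of higher values was 56.3% among antisense clusters and 51.8% among all clusters above the floor. The antisense median was 0 after quantile normalisation of the 2 arrays, 0.01 after centring and 0.012 after loess. The size of this median thus depends on how the arrays are scaled. Shares of higher values were not computed again after rescaling.

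**Figure D1:**
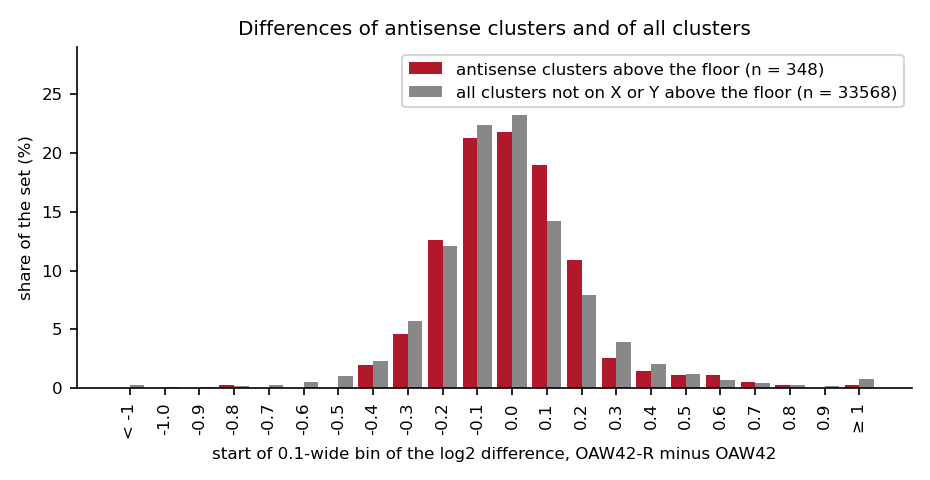
Share of clusters above the floor (vertical axis, percent of the set) in bins 0.1 wide of the log2 difference, OAW42-R minus OAW42 (horizontal axis), for 348 antisense clusters (red) and all 33568 clusters not on X or Y (grey). Both sets are centred near 0, and the antisense clusters have 1 member at or above 1 and none at or below -1.

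The largest difference was that of DSCAM-AS1 (cluster TC21000181.hg.1), whose partner DSCAM encodes the Down syndrome cell adhesion molecule. The signal was 7.23 in OAW42-R against 5.65 in OAW42, which is 1.58 apart as measured (2.99-fold). The OAW42 signal lay below that array's median of 6.30, and from that median the OAW42-R signal was 0.93 higher (1.91-fold), so the only 2-fold call rests on a signal below the floor. DSCAM itself was below the floor, at 5.77 in OAW42-R and 5.81 in OAW42. The nearest genes above the floor on either side, B3GALT5, a galactosyltransferase gene, with a difference of 0.33 and MIR3197 with -0.11, differed less than the antisense cluster.

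LHFPL3-AS2 (TC07001726.hg.1) was bright in both lines, at 9.77 in OAW42-R against 8.89 in OAW42, which is 0.88 apart (1.84-fold). Its partner LHFPL3, a tetraspan membrane protein gene, was below the floor at 5.94 in OAW42-R and 5.85 in OAW42. LHFPL3-AS2 lies in the stretch of chromosome 7 that holds RELN, the gene of the secreted glycoprotein reelin, which differed by 3.11 (10.05 in OAW42-R, 6.94 in OAW42), while ORC5, an origin recognition complex gene between them, differed by -0.09. TRPC7-AS2 (TC05000685.hg.1) had 6.41 in OAW42-R and 5.65 in OAW42, 0.76 higher in OAW42-R, and the channel gene TRPC7 was below the floor in both. Of its 4 nearest neighbours above the floor, SMAD5 differed by 0.02, SMIM32 by 0.10 and SPOCK1 by 0.06, and CTB-1I21.1 had 7.19 in OAW42-R and 6.10 in OAW42, the OAW42 signal again below that array's median. SNAP25-AS1 (TC20000617.hg.1) had 6.66 in OAW42-R and 5.97 in OAW42, 0.69 higher in OAW42-R, and its partner SNAP25, a SNARE protein of vesicle fusion, was at 8.93 in OAW42-R and 8.55 in OAW42. PLCB4, the phospholipase gene on the other side, went the opposite way, with 8.40 in OAW42-R and 9.42 in OAW42. The signals of TRPC7-AS2 and SNAP25-AS1 in OAW42 were below that array's median, as for DSCAM-AS1, and from that median their OAW42-R signals were only 0.11 (1.08-fold) and 0.36 (1.28-fold) higher.

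The remaining 4 higher clusters, like LHFPL3-AS2, were above the median of both arrays. SLFNL1-AS1 (TC01000521.hg.1) had 7.57 in OAW42-R and 6.82 in OAW42, 0.75 higher in OAW42-R. Its partner SLFNL1, a Schlafen-like gene, differed by 0.06 (7.29 in OAW42-R, 7.23 in OAW42), but CTPS1, the CTP synthase gene next to it, differed by 0.74. SH3BP5-AS1 (TC03000093.hg.1) had 8.02 in OAW42-R and 7.33 in OAW42, and SH3BP5, whose product activates the small GTPase RAB11, had 8.18 in OAW42-R and 8.03 in OAW42. Of the other genes next to SH3BP5-AS1 above the floor, CAPN7 differed by 0.61, RBSN by 0.43 and METTL6 by 0.27. THUMPD3-AS1 (TC03003373.hg.1) had 8.56 in OAW42-R and 7.88 in OAW42, and THUMPD3, a tRNA methyltransferase gene, had 9.92 in OAW42-R and 9.65 in OAW42. SETD5, the chromatin regulator gene on the other side of THUMPD3-AS1, differed by 0.55. RNF157-AS1 (TC17000866.hg.1) had 8.54 in OAW42-R and 7.92 in OAW42, whereas RNF157, a ubiquitin ligase gene, was lower in OAW42-R with 8.33, against 8.54 in OAW42. For these 4 the antisense cluster differed more than its own partner. They were picked by the size of the antisense difference, which makes a smaller partner difference likely in itself.

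THAP9-AS1 (TC04002943.hg.1) was the single antisense cluster at least 1.5-fold lower in OAW42-R. Its signal was 6.31 in OAW42-R, just below that array's median, and 7.10 in OAW42, so that it differed by -0.79 (1.73-fold), or by 0.76 in size (1.69-fold) from the OAW42-R median. THAP9, from whose start it begins 181 bases away, was below the floor in both lines at 5.13 in OAW42-R and 5.23 in OAW42. Of the 4 nearest genes above the floor, SCD5 differed by -0.08 and the other 3 were lower by more. SEC31A, a coat protein gene of vesicles leaving the endoplasmic reticulum, had 9.11 in OAW42-R and 9.85 in OAW42, LIN54, a subunit of the DREAM complex, had 7.83 in OAW42-R and 8.36 in OAW42, and COPS4, a COP9 signalosome subunit, had 6.77 in OAW42-R and 7.18 in OAW42. Just inside the 1.5-fold threshold on the higher side was RNF157-AS1 (0.62). Just outside it were LMLN-AS1 with 0.57 (7.21 in OAW42-R, 6.64 in OAW42) and PSMD6-AS2 with 0.55 (6.50 in OAW42-R, 5.95 in OAW42). The OAW42 signal of PSMD6-AS2 was below that array's median of 6.30. On the lower side a gap separated THAP9-AS1 from EXOC3-AS1 (-0.38).

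**Figure D2:**
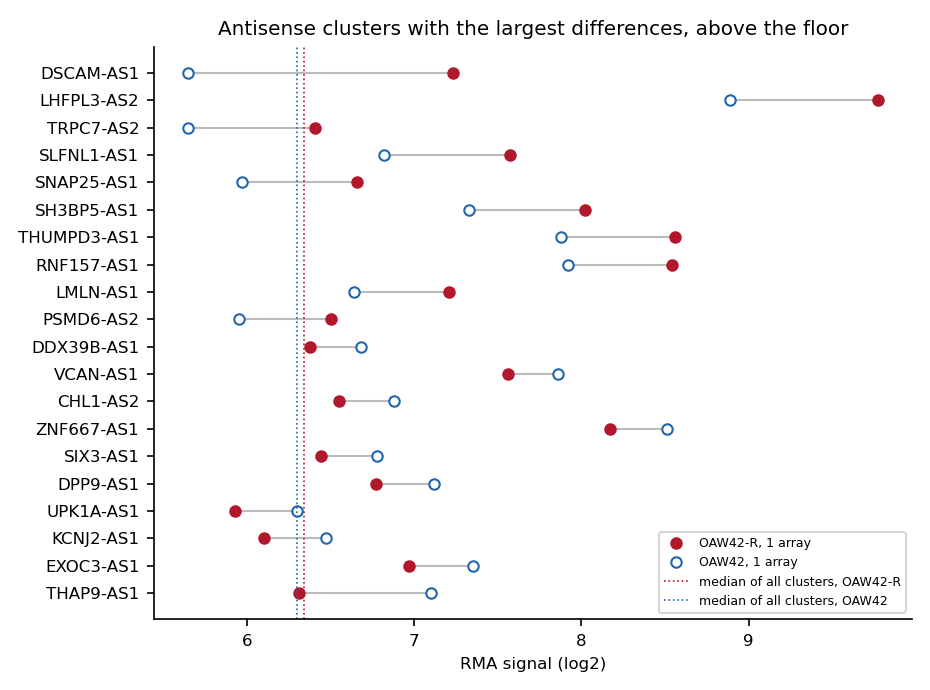
RMA signal (log2, horizontal axis) of the 10 antisense clusters with the largest positive and the 10 with the largest negative differences above the floor, OAW42-R in filled red and OAW42 in open blue circles, 1 array each, with dotted lines at each array's median over all clusters. DSCAM-AS1 is farthest apart (7.23 in OAW42-R, 5.65 in OAW42), and of the 10 lower clusters only THAP9-AS1 differs by more than 0.38.

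The other clusters lower in OAW42-R differed little. EXOC3-AS1, opposite an exocyst subunit gene, had 6.97 in OAW42-R and 7.35 in OAW42. UPK1A-AS1, opposite a uroplakin gene, had 5.93 in OAW42-R and 6.30 in OAW42, and DPP9-AS1, inside a dipeptidyl peptidase gene, had 6.77 in OAW42-R and 7.12 in OAW42. ZNF667-AS1, studied as a transcript silenced in tumours, had 8.17 in OAW42-R and 8.51 in OAW42. CHL1-AS2 (-0.33), SIX3-AS1 (-0.34) and DDX39B-AS1 (-0.30) were of the same size. The 5 antisense clusters with the highest mean signal, which is not an order of RNA amounts, were all at least slightly higher in OAW42-R: EMC3-AS1 (10.44 in OAW42-R, 9.94 in OAW42), LHFPL3-AS2, OIP5-AS1 (9.67 in OAW42-R, 9.50 in OAW42), HNRNPU-AS1 (9.65 in OAW42-R, 9.38 in OAW42) and UNC5B-AS1 (9.21 in OAW42-R, 9.15 in OAW42).

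Each antisense cluster was then set against its partner. A partner cluster was found for 673 members (581 genes), and in 283 pairs (266 partners) both sides were above the floor. Antisense and partner differences ran weakly together, with a Pearson coefficient (r) of 0.33 and a Spearman coefficient of 0.30 across the 283 pairs. Both are descriptions, since all pairs come from the same 2 arrays and overlapping genes share DNA. The Pearson coefficient was 0.32 without the 2 antisense clusters farthest from the median (SNAP25-AS1 and SLFNL1-AS1), 0.30 without the 2 farthest partners (EPB41L4A and WNT5A) and 0.34 with 1 pair per partner. It was 0.31 without chromosome 3 (244 pairs). In 86 pairs both sides were higher in OAW42-R and in 71 both were lower. In 74 the antisense cluster was higher and the partner lower, in 34 the reverse, and in 18 one side did not differ. No pair passed 1.5-fold on both sides, where 5 antisense clusters and 9 partners passed it alone. With so few calls on each side, joint calls would be rare even if the sides were unrelated, so their absence says little. DSCAM-AS1, LHFPL3-AS2, TRPC7-AS2 and THAP9-AS1 had partners below the floor and were not among the pairs. The strand and position of the probes were not in the sources used here, so the part that partner RNA plays in an antisense signal was not tested.

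**Figure D3:**
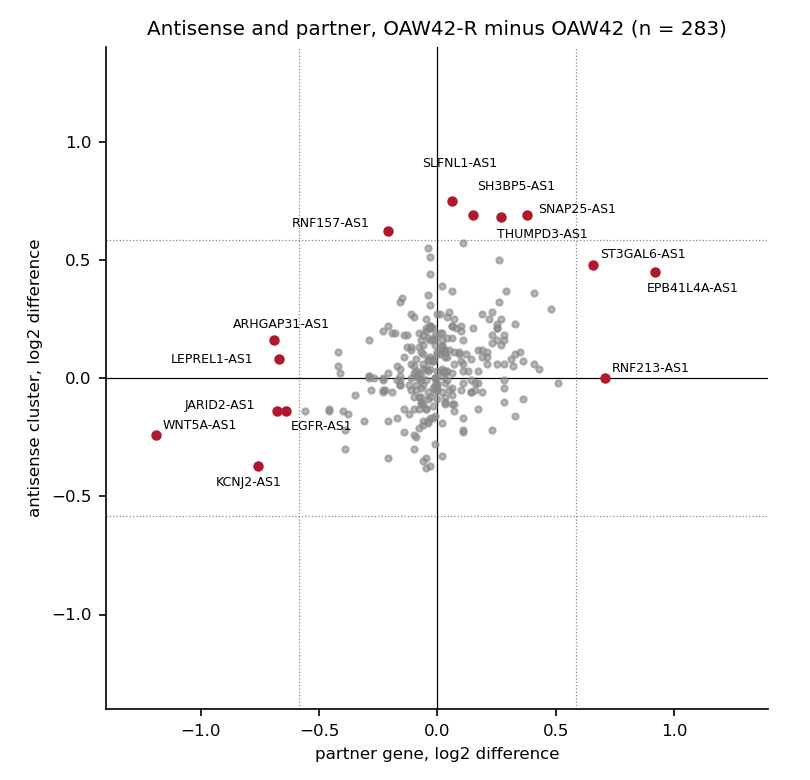
Log2 difference, OAW42-R minus OAW42, of the antisense cluster (vertical axis) against that of its partner gene (horizontal axis) for 283 pairs above the floor, with dotted lines at 1.5-fold and named red points where either side passed it. No point lies past the dotted lines on both axes, where only 5 antisense clusters and 9 partners pass on 1 axis, and r is 0.33.

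Of 444 partners above the floor, 9 (2.03%) were at least 1.5-fold higher in OAW42-R, where 2.01% of 15077 named genes were, and 12 (2.7%) were at least 1.5-fold lower, where 1.27% of named genes were. Whether these shares differ was not tested. The pairs named here and in the next paragraph were picked by the partner difference, which makes a smaller antisense difference likely in itself. In several of them the antisense cluster differed in the same direction by less. WNT5A, a non-canonical Wnt ligand, had 7.05 in OAW42-R and 8.24 in OAW42, and WNT5A-AS1 inside it had 7.34 in OAW42-R and 7.58 in OAW42. EPB41L4A, a band 4.1 family gene, had 9.44 in OAW42-R and 8.52 in OAW42, and EPB41L4A-AS1, a host of a small nucleolar RNA, had 9.40 in OAW42-R and 8.95 in OAW42. KCNJ2 had 6.67 in OAW42-R and 7.43 in OAW42, and KCNJ2-AS1 had 6.10 in OAW42-R and 6.47 in OAW42. ST3GAL6 had 7.81 in OAW42-R and 7.15 in OAW42, and ST3GAL6-AS1 had 7.94 in OAW42-R and 7.46 in OAW42. ST3GAL6 and KCNJ2 share part of their start window with their antisense gene, but so does P3H2, whose antisense cluster did not differ in the same direction. Over all 87 pairs with starts within 1000 bases of each other, both sides were higher in 24 and lower in 27, the antisense cluster was higher and the partner lower in 20 and the reverse in 12, and in 4 one side did not differ.

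In other pairs the antisense cluster differed much less than its partner or in the opposite direction. RNF213, a large ubiquitin ligase gene, had 9.83 in OAW42-R and 9.12 in OAW42, whereas RNF213-AS1, which overlaps its end, was 7.14 in both. P3H2 had 8.03 in OAW42-R and 8.70 in OAW42, and LEPREL1-AS1 had 7.92 in OAW42-R and 7.84 in OAW42. JARID2, a component of the polycomb complex, differed by -0.68 and JARID2-AS1 by -0.14. Of the 6 partners at least 2-fold apart, WNT5A included, the other 5 had an antisense difference of 0.20 or less in size. NECTIN3, an adhesion receptor gene, had 7.48 in OAW42-R and 8.86 in OAW42, and NECTIN3-AS1 was below the floor. CYP1B1, a cytochrome P450 of xenobiotic metabolism, had 9.04 in OAW42-R and 10.33 in OAW42, and CYP1B1-AS1 was below the floor. SLC8A1, the sodium-calcium exchanger gene, had 9.22 in OAW42-R and 7.53 in OAW42, against 4.97 in OAW42-R and 4.82 in OAW42 for SLC8A1-AS1. NEXN, an actin-binding protein gene, differed by -1.13, with NEXN-AS1 below the floor. TRHDE, a peptidase gene itself below the floor, differed by 1.59, while TRHDE-AS1 above it differed by 0.10.

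The position relative to the partner sorted the antisense clusters to some extent. Clusters that overlapped the end of the partner had a median difference of 0.11, with 33 of 44 higher in OAW42-R, where 56.3% of all antisense clusters were. Those that overlapped at the starts had a median of -0.005 (34 of 72 higher), those inside the partner 0.015 (31 of 58) and those head to head 0.03 (24 of 39). The 2 classes of 4 clusters each had higher medians, 0.15 spanning the partner and 0.175 tail to tail without overlap. Differences between classes were not tested. As 6 of the 44 are clusters of HLA-F-AS1, each symbol was also counted once. Of 39 end-overlapping symbols 28 were then higher, with a median of 0.10. Without chromosome 3, 25 of 35 clusters were higher with the same median. Those 35 still hold the 6 clusters of HLA-F-AS1, all higher, and the 2 restrictions were not combined. After quantile normalisation the median of the end-overlapping clusters was 0.075. Those of the classes at the starts, inside the partner and head to head were 0 or below. The largest end-overlapping members were THUMPD3-AS1, PSMD6-AS2 and HLA-F-AS1 (7.26 in OAW42-R and 6.95 in OAW42 in the cluster of the main assembly). Of these PSMD6-AS2 was below the array median in OAW42. The partners of the end-overlapping clusters had a median of 0.015 over 40 pairs. OIP5-AS1, which also overlaps the end of its partner, differed by 0.17, and OIP5, a centromere protein gene, by -0.04.

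**Figure D4:**
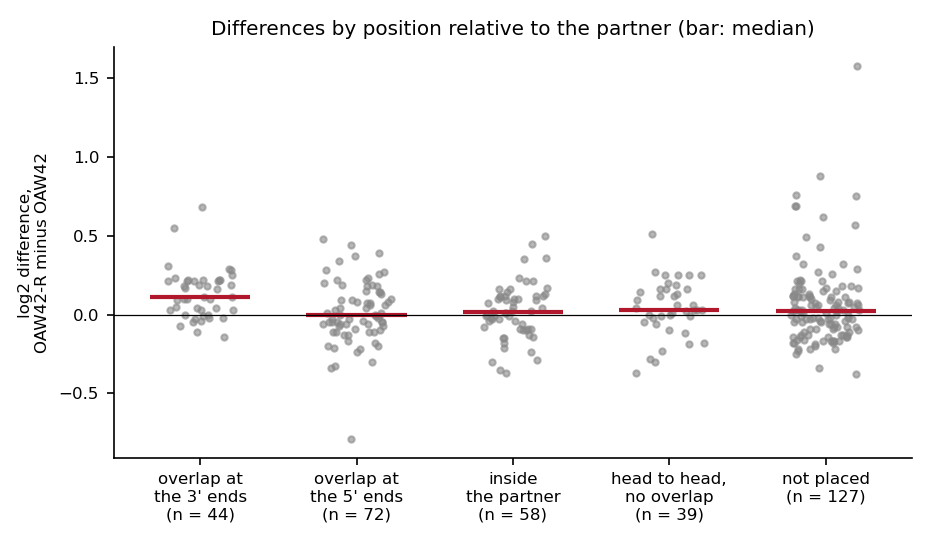
Log2 difference, OAW42-R minus OAW42 (vertical axis), of each antisense cluster above the floor (points) by its RefSeq position relative to the partner, with the median as a red bar. Of the classes drawn the end-overlapping one has the highest median (0.11, 44 clusters), the other 4 have medians between -0.005 and 0.03, and 2 classes of 4 clusters each are not drawn.

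Antisense and partner differences ran together most closely where the antisense gene lay inside its partner, with r of 0.50 and a Spearman coefficient of 0.47 over 47 pairs. At the starts r was 0.28 (63 pairs), head to head 0.35 with a Spearman coefficient of 0.15 (35 pairs), and at the ends 0.06 with a Spearman coefficient of -0.10 (40 pairs). Pairs whose starts lay within 1000 bases of each other had r of 0.38 (87 pairs), and those farther apart 0.27 (103 pairs). The differences between these coefficients were not tested.

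Chromosome 3 holds the most antisense clusters. Of its 48 above the floor, OAW42-R had the higher signal in 35, and the median difference was 0.115, against 0.04 and 55.9% higher over all clusters of the chromosome above the floor. Values of that size were not particular to it, since the antisense medians were 0.14 on chromosome 1 (11 of 18 higher) and 0.12 on chromosome 16 (8 of 11 higher). Without chromosome 3 the antisense median was 0.02 and 53.7% were higher. On the side from CHL1-AS2 to PSMD6-AS2, 18 of 24 were higher with a median of 0.16, and 355 other named genes of that stretch had a median of 0.12 with 70.4% higher, close to the antisense clusters among them. THUMPD3-AS1 (0.68), SH3BP5-AS1 (0.69), PSMD6-AS2 (0.55), EMC3-AS1 (0.50), PRRT3-AS1 (0.39) and SGO1-AS1 (0.36) lie on it, PSMD6-AS2 with an OAW42 signal below the array median. SGO1, the protector of centromeric cohesin, differed by 0.41 and UBE2E1, a ubiquitin-conjugating enzyme gene, by 0.43.

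On the other side, from ST3GAL6-AS1 to LMLN-AS1, the 438 other named genes had a median of -0.05 with 36.1% higher, whereas 17 of 24 antisense clusters were higher with a median of 0.06. The partners of that stretch include P3H2 and MYLK, the myosin light chain kinase gene (-0.42), which were lower in OAW42-R while LEPREL1-AS1 (0.08) and MYLK-AS1 (0.11) were not. WWTR1, the coactivator TAZ, differed by -0.38 and WWTR1-AS1 by -0.15. The chromosome was divided after its values were seen, and the difference between antisense clusters and genes there was not tested. Lower values prevailed on chromosome 22, with 2 of 8 antisense clusters higher and a median of -0.08, next to a median of -0.09 over all its clusters, and on chromosome 4, with 2 of 9 higher and a median of -0.03, where all clusters had a median of 0.03 with 54.9% higher.

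**Figure D5:**
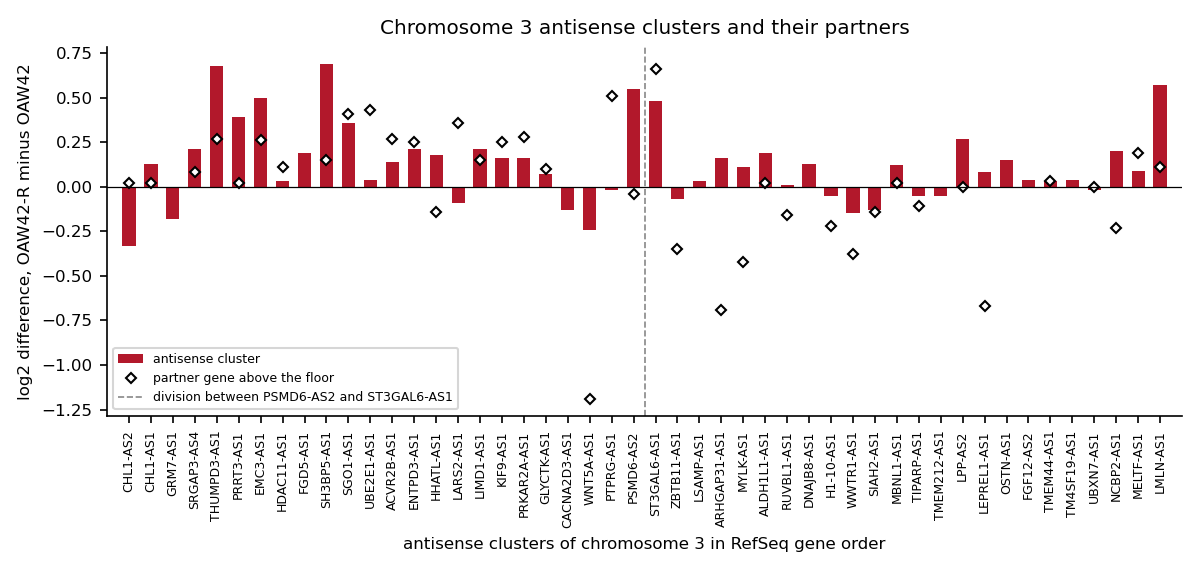
Log2 difference, OAW42-R minus OAW42 (vertical axis), of the 48 antisense clusters of chromosome 3 above the floor in RefSeq gene order (red bars) and of their partners above the floor (open diamonds), with a dashed line between PSMD6-AS2 and ST3GAL6-AS1. Bars are above 0 for 18 of 24 clusters left of the line and 17 of 24 right of it, while partners are mostly above 0 on the left only.

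By what the partner does, no group stood far from 0, and the medians of the homeobox, other transcription factor and zinc finger groups turned to -0.03, -0.025 and -0.025 after quantile normalisation, while that of the transporter group was 0.02 with no floor. Among antisense RNAs of HOX and other homeobox genes, the regulators of body patterning, 6 of 12 above the floor were higher, 5 lower and none past 1.5-fold, with a median of 0.015. The HOXB locus gave the highest values: HOXB-AS1 had 7.73 in OAW42-R and 7.24 in OAW42, and HOXB-AS3 had 7.43 in OAW42-R and 7.00 in OAW42. The 8 HOXB genes with a cluster above the floor, all higher, differed by between 0.13 (HOXB13) and 1.52 (HOXB5, 9.07 in OAW42-R and 7.55 in OAW42), with 0.70 for HOXB2, 0.53 for HOXB9, 0.42 for HOXB8 and 0.14 for HOXB1 among them. HOXB-AS4 was lower, at 7.25 in OAW42-R and 7.42 in OAW42, and HOXB-AS2 was below the floor. At the other HOX loci HOXA-AS2 differed by -0.18, HOXA-AS3 by 0.03, HOXC-AS3 by 0.12 and HOXD-AS2 by 0. Antisense RNAs of other transcription factors were higher in 3 and lower in 2 of 6, between HIF1A-AS1, opposite the hypoxia factor gene (8.09 in OAW42-R, 8.39 in OAW42), and ATF7-AS1 (7.26 in OAW42-R, 7.03 in OAW42). Those of zinc finger genes were higher in 7 and lower in 5 of 12, between ZNF667-AS1 and ZNF143-AS1 (6.79 in OAW42-R, 6.28 in OAW42).

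Antisense RNAs of transporter and channel genes were higher in 8 and lower in 9 of 17, with a median of -0.05, and TRPC7-AS2 alone passed 1.5-fold. SLC26A4-AS1, opposite an anion exchanger gene, had 6.38 in OAW42-R and 6.59 in OAW42, and CACNA1C-AS2, inside a calcium channel gene, had 6.67 in OAW42-R and 6.85 in OAW42. Those of matrix, protease and adhesion genes were lower in 8 of 10, with a median of -0.065. VCAN-AS1, inside the versican gene, had 7.56 in OAW42-R and 7.86 in OAW42, and VCAN itself had 11.44 in OAW42-R and 11.83 in OAW42. CDH23-AS1 (7.38 in OAW42-R, 7.59 in OAW42) and COL4A2-AS2 (7.38 in OAW42-R, 7.54 in OAW42) were lower as well, and only DSCAM-AS1 and COL4A2-AS1 (0.10) were higher. Those of genes listed for cell cycle and DNA repair were higher in 9 of 12, where 56.3% of all antisense clusters were. Their median was 0.095 and none passed 1.5-fold. Among them were MCM3AP-AS1 (7.49 in OAW42-R, 7.30 in OAW42) and KIF9-AS1 (7.38 in OAW42-R, 7.22 in OAW42). The largest was PSMD6-AS2 (0.55), opposite a proteasome subunit gene, with an OAW42 signal of 5.95, below that array's median of 6.30. KIF9-AS1 and PSMD6-AS2 lie on the side of chromosome 3 where 70.4% of other named genes were higher. Of the antisense RNAs studied in cancer, 31 of 48 above the floor were higher and 16 lower, with a median of 0.08, next to 0.03 over all antisense clusters. Besides DSCAM-AS1 and THAP9-AS1, MAPKAPK5-AS1 had 7.61 in OAW42-R and 7.17 in OAW42, AGAP2-AS1 had 7.75 in OAW42-R and 7.40 in OAW42, and TPT1-AS1 had 8.57 in OAW42-R and 8.32 in OAW42. FOXD2-AS1 was 7.96 in both, PCNA-AS1 differed by 0.01, ZEB1-AS1 by 0.04 and AFAP1-AS1 by 0.08, and CDKN2B-AS1 (ANRIL), at the cell cycle inhibitor locus, was below the floor at 6.05 in OAW42-R and 5.89 in OAW42.

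Several clusters were given for 18 symbols, with 47 clusters in all, of which 14 lay on alternative haplotypes of the assembly, and the clusters of a symbol were at most 0.51 apart in their difference (PROX1-AS1, below the floor). In 4 symbols, PROX1-AS1, KCTD21-AS1 (-0.07 and 0.17), USP3-AS1 (-0.05 and 0.10) and ST7-AS2 (0.05 and -0.06), the clusters differed in sign, in each with at least 1 of them below the floor. Of the 5 symbols with several clusters above it none had both signs, and GNAS-AS1 gave 0.18 and 0. The 6 clusters of HLA-F-AS1 differed by 0.21 to 0.31, and 3 of them held the same values, 7.71 in OAW42-R and 7.49 in OAW42. The 8 clusters of OR2W1-AS1 were below the floor and 6 held the same values, 5.84 in OAW42-R and 5.81 in OAW42, so such clusters are not separate measurements. Both clusters of GAS6-AS1 were higher (0.12 and 0.13) and both of MAPT-AS1, antisense to the tau gene, were lower (-0.23 and -0.22).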

How the data were processed

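Total RNA of both lines, extracted with Trizol, was made into biotin-labelled single-stranded cDNA from 100 ng and hybridised to 1 array per line. The authors normalised the arrays with RMA in the manufacturer's software, and deposited log2 signals, 1 per transcript cluster, rounded to 2 decimals. RMA equalises the distributions of arrays, so a change in total RNA per cell is not seen, and it compresses large folds. For the RMA version, the annotation release and the genome build the sources used here give nothing. The cell line in the labels set the groups.

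Clusters were named with the platform annotation: 23780 had 1 symbol, 1541 had several and 42203 had none. Of the 749 antisense clusters, 491 matched RefSeq (GRCh38.p14) by Entrez identifier, 231 by symbol, 26 by an older symbol and 1 did not match. That table gave names, gene order and position relative to the partner only, and start windows came from RefSeq sequences of the same assembly. A partner was represented by its brightest single-symbol cluster. Counts and medians were computed in Python 3.11.15 (pandas 2.3.3, numpy 2.4.6, statsmodels 0.14.6). The counts at 1.5-fold and 2-fold were checked on simulated data with planted differences larger than both thresholds. Medians and correlations were not checked in this way. Named members were the 10 largest differences each way, the 5 brightest, up to 4 per group of partners and the 8 pairs with the largest partner difference, and any others were named after their values were seen. Members, lists and this rule were chosen with earlier results of these data known. The number of arrays limits the precision. Alternatives were other scalings (centring, quantile, loess), no floor or a floor at the 75th percentile, 1 cluster per symbol, current names and other partner clusters.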

Additional observations from a re-analysis of the deposited data

How the results depend on the processing

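No paired analysis was possible because each line had 1 array and no result came from a test, and for the same reason no replicate could be left out. None of the 48 named members changed sign over 3 rescalings, and the largest shift was 0.05. The median of all antisense clusters above the floor was 0 after quantile normalisation, 0.01 after centring and 0.012 after loess. With the floor at the 75th percentile, 81 clusters were left, of which 4 were at least 1.5-fold higher in OAW42-R, 0 at least 1.5-fold lower and 0 at least 2-fold higher. The shares of all clusters at that floor were not computed, so these counts cannot be read against them. Over the 318 clusters at or above the median of both arrays, the counts were 5 at least 1.5-fold higher, 0 at least 1.5-fold lower and 0 at least 2-fold higher. The 2 clusters above the floor with a current -DT name gave 0 in each count. The correlation of antisense and partner differences was 0.195 over 673 pairs without a floor and 0.474 over 51 pairs with the higher floor. Medians near 0 had no settled direction. After quantile normalisation they were -0.03 for homeobox, -0.025 for other transcription factor, -0.025 for zinc finger, -0.08 for transporter and -0.105 for matrix partners, 0.057 for RNAs studied in cancer and 0.058 for cell cycle partners. By position they were 0 head to head, 0.075 at the ends, -0.04 at the starts and -0.01 inside the partner. After loess the zinc finger median was -0.011. Without a floor, medians were 0.07 for cell cycle, -0.03 for matrix, 0.05 for other transcription factor, 0.02 for transporter and 0.06 for zinc finger partners. The alternatives for groups of partners, for position, for chromosome 3 and for signals in both arrays were chosen after seeing the data. Signals below the median of an array, as for DSCAM-AS1, TRPC7-AS2, SNAP25-AS1 and PSMD6-AS2 in OAW42, limit how far their folds can be read.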
